A study of Triticum aestivum with 8 samples.

Results

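XTH and COMT1, a pair of plant cell wall genes, were followed in the crowns of a pair of winter wheat lines before and after cold acclimation. XTH stands for xyloglucan endotransglucosylase/hydrolase. COMT1 is a caffeic acid O-methyltransferase. The genes were chosen by their symbol in the array annotation, which names 771 genes, and each was found on 1 probe set of the 61115 tested. The XTH probe set (Ta.30703.1.S1_at) carries that symbol itself. No probe set carries COMT1 as its only symbol. The gene was found under LOC543449 (Ta.336.1.S1_x_at), which the RefSeq gene table pairs with the other names COMT1, OMT1 and TaCOMT1. Of the tested probe sets 59842 are not assigned exactly 1 symbol, so that further genes of both families may be among them. The ending x_at marks a probe set that shares some of its probes with other transcripts, and copies of a gene on the 3 genomes of bread wheat cannot be told apart here.

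The plant cell wall holds cellulose fibres that are tied together by hemicelluloses such as xyloglucan. XTH enzymes cut xyloglucan chains and join the cut ends to other chains, which lets a wall loosen and be rebuilt as a cell grows. Lignin, a polymer of phenolic alcohols, stiffens walls once growth has ended. Methyl groups are added to the precursors of lignin as it is made, with S-adenosylmethionine as the methyl donor. The crown, the region between root and shoot, holds the shoot meristem and the bases of the leaves, and regrowth after winter starts from it.

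The lines were SD16029, freeze resistant (FR), and SD16169, freeze susceptible (FS). Both descend from seed of the cultivar Winoka treated with sodium azide, and each is a single selected mutant line. Non-acclimated plants (NT) came from the greenhouse, given as 25°C in the labels, at about the 3 to 4 leaf stage, and cold-acclimated plants (CA) were moved at that stage to 4°C for 4 weeks, so that CA plants were also older at harvest and age and cold cannot be told apart. There were 2 arrays for each of the 4 groups (FR NT, FR CA, FS NT and FS CA), each with RNA pooled from 3 biological replicates. According to the paper the arrays of a group are technical replicates, and p-values here therefore measure only the spread between arrays.

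Signals are log2 values after gcRMA, with a floor of 2.15 and array medians from 2.86 to 2.95. Arrays of a group correlated at 0.995 to 0.997 and arrays of different treatments at 0.910 to 0.923. Tissue markers were fixed as lists. Of the 33 probe sets of 4 green leaf genes, 23 lay under the median on all arrays and 10 of these at the floor, but the brightest, of rbcL, read up to 16.9 in tissue that was described as non-photosynthetic. No gene of the root list was named in the annotation, nor any gene that defines the crown. The number of arrays limits the precision of every value.

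XTH fell with cold acclimation in both lines, 7.44-fold in FR and 9.09-fold in FS. In FR its log2 signal was 11.86 and 11.86 on the NT arrays and 8.92 and 9.00 on the CA arrays. In FS the NT arrays read 11.94 and 11.77 and the CA arrays 8.62 and 8.72. All 4 CA arrays were thus below all 4 NT arrays, with a gap from 9.00 to 11.77. The log2 change was -2.90 in FR (SE 0.07, 95% interval -3.09 to -2.70, limma adjusted p = 5.80e-05). In FS it was -3.18 (SE 0.07, 95% interval -3.38 to -2.99, limma adjusted p = 4.26e-05).

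COMT1 fell to a similar extent, 7.46-fold in FR and 7.31-fold in FS. In FR its log2 signal was 14.24 and 14.04 on the NT arrays and 11.20 and 11.28 on the CA arrays. In FS the NT arrays read 14.18 and 14.24 and the CA arrays 11.23 and 11.44. Here too every CA array lay below every NT array. The log2 change was -2.90 in FR (SE 0.10, 95% interval -3.17 to -2.63, limma adjusted p = 0.000118). In FS it was -2.87 (SE 0.10, 95% interval -3.14 to -2.60, limma adjusted p = 0.000110).

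**Figure D1:**
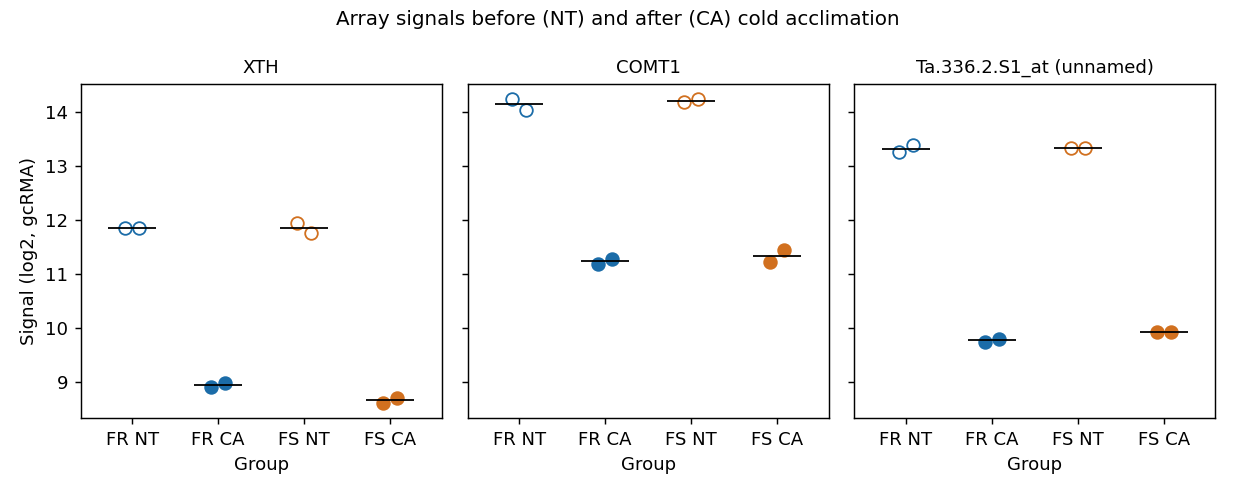
Log2 gcRMA signal (vertical axis) of XTH, COMT1 and the unnamed probe set Ta.336.2.S1_at on each array, by line and treatment, with NT as open and CA as filled circles and the group mean as a line. In each panel the 4 CA arrays lie below the 4 NT arrays, and only for XTH do both FR CA arrays lie above both FS CA arrays.

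Both genes were among many that changed. In FR 28.9% of the tested probe sets were called in either direction and 13.6% were called lower, and in FS 30.1% and 13.8%. CA arrays lay below NT arrays without overlap in 21.1% of probe sets in FR and 21.6% in FS, so that separation of the arrays alone is common here. The size of the fall was less common. In FR 3.55% of all tested probe sets, or 25.8% of those called lower, fell at least as far as XTH, and the shares for COMT1 were 3.54% and 25.8%. In FS the shares were 3.38% and 24.3% for XTH, and 3.94% and 28.4% for COMT1. The median change over all tested probe sets was 0.00 in each line.

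**Figure D2:**
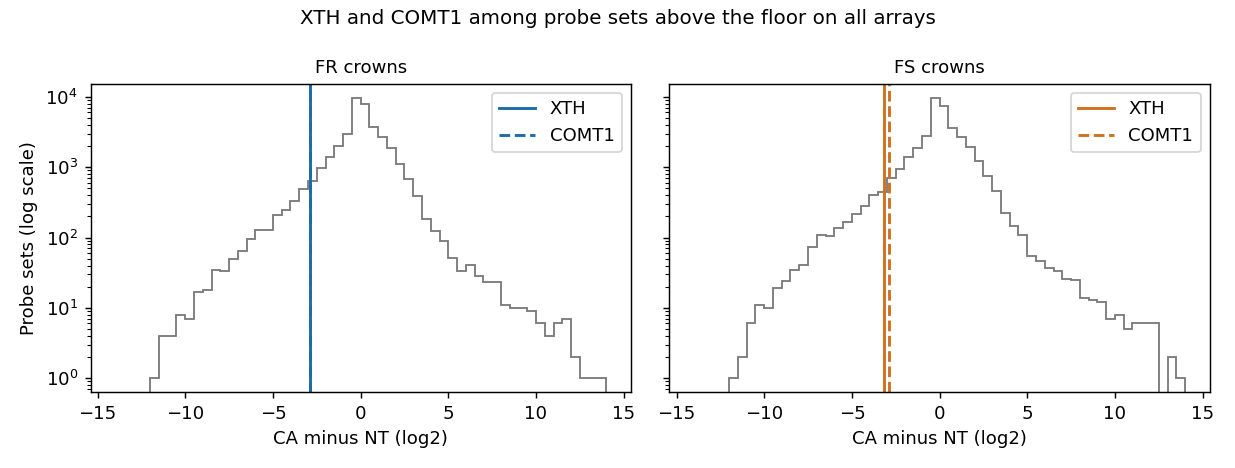
Number of probe sets (vertical axis, log scale) by log2 change from NT to CA (horizontal axis, bins of 0.5) for the 38523 probe sets above the floor on all arrays, in FR and FS. Vertical lines mark XTH (solid) and COMT1 (dashed), which fall on top of each other in FR at -2.90 and stand at -3.18 and -2.87 in FS, in the left flank of both distributions.

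After the fall both genes still gave signals well above the middle of the arrays. Ranked among the tested probe sets, XTH went from the 94.9th to the 80.8th percentile in FR and from the 94.7th to the 78.7th in FS. COMT1 went from the 98.9th to the 92.6th in FR and from the 99.0th to the 92.7th in FS. A percentile ranks array signals and not amounts of transcript, since probe sets bind with different strength. The spread between arrays of a group was small for both. Their residual SDs were 0.08 for XTH and 0.11 for COMT1, against a median of 0.16 for probe sets above the floor on all arrays. In bulk tissue of this kind, fewer cells that express a gene and less of its RNA in each cell cannot be told apart.

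The control RNAs that are added to a sample before labelling (poly-A spike-ins, 42 probe sets) were 0.60 higher on the log2 scale in the CA arrays of each line. Their means also differed between replicates. In FR they were 7.76 and 8.12 on the NT arrays and 8.34 and 8.74 on the CA arrays. In FS they were 7.78 and 8.01 in NT and 8.43 and 8.57 in CA. Relative to the spike-ins the fall of XTH was larger, with a log2 change of -3.50 in FR and -3.79 in FS. Likewise COMT1 changed by -3.50 in FR and -3.47 in FS. The direction of both genes was thus the same on either scale.

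A second probe set shares the name stem of the COMT1 probe set but carries no gene symbol. This probe set (Ta.336.2.S1_at) read 13.26 and 13.38 in FR before the cold and 9.75 and 9.81 after it. In FS its readings were 13.34 and 13.33 before and 9.94 and 9.94 after. Its fall was steeper than that of COMT1 as measured, 11.6-fold in FR (log2 -3.54, 95% interval -3.67 to -3.41) and 10.5-fold in FS (log2 -3.39, 95% interval -3.52 to -3.27). Limma called it lower in both lines (adjusted p = 1.76e-05 in FR and 1.66e-05 in FS), and its intervals do not overlap those of COMT1 in either line. The difference between the probe sets was not tested. No other probe set shares the stem of XTH.

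Before cold acclimation the lines had nearly the same signal for both genes. The log2 difference of FR NT from FS NT was 0.00 for XTH (95% interval -0.19 to 0.19) and -0.07 for COMT1 (95% interval -0.34 to 0.20). The arrays of the lines overlapped for both. Limma called neither (adjusted p = 1 for each), in a comparison where 0.0213% of all probe sets were called. The intervals leave room for differences of up to 1.14-fold for XTH and 1.27-fold for COMT1.

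After cold acclimation XTH read higher in FR crowns than in FS crowns, by 0.20 to 0.38 over the 4 pairs of arrays. On the log2 scale the means differed by 0.29 (SE 0.07, 95% interval 0.10 to 0.48), or 1.22-fold. Limma did not call it (unadjusted p = 0.0121, adjusted p = 0.369), in a comparison where 0.373% of all probe sets were called. Both FR CA arrays lay above both FS CA arrays, as they did for 9.59% of all probe sets. The fall of XTH was accordingly 0.29 smaller in FR than in FS (95% interval 0.02 to 0.56), and this difference in response was not called either (adjusted p = 1 from limma, with 0.108% of probe sets called). The difference in CA and the difference in response share the same CA arrays and are not separate evidence.

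For COMT1 the arrays of the lines overlapped after cold acclimation. FR CA minus FS CA was -0.10 on the log2 scale (95% interval -0.37 to 0.17) and the difference in response was -0.03 (95% interval -0.41 to 0.35), with an adjusted p of 1 from limma for both. Differences of up to 1.29-fold in CA lie within the interval. The unnamed probe set of the same stem was lower in both FR CA arrays than in both FS CA arrays, as were 15.5% of all probe sets, with a log2 difference of -0.16 (95% interval -0.29 to -0.04, adjusted p = 0.478 from limma) that did not pass the test. In CA the XTH signals therefore stood higher in FR than in FS on these few arrays, a difference that was not called. For COMT1 neither line stood beyond the spread of the other.

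**Figure D3:**
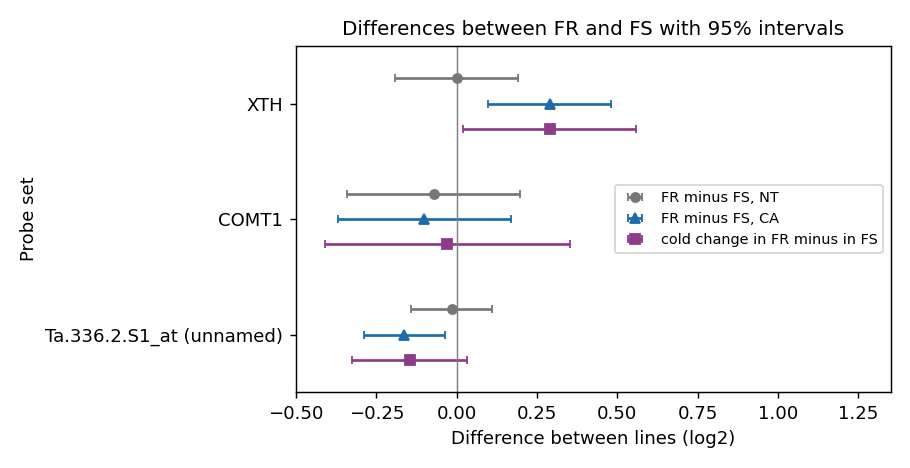
Log2 differences between the lines (horizontal axis) for XTH, COMT1 and Ta.336.2.S1_at: FR minus FS in NT (circles), FR minus FS in CA (triangles) and the cold change in FR minus that in FS (squares), with 95% intervals of the fitted model. The CA difference of XTH, 0.29, lies above 0 with its interval, and none of the 9 differences passed the test over all probe sets.

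The profiles of XTH and COMT1 over the 8 arrays were close to each other. With each probe set centred on its own mean, the root mean square difference between them was 0.18 on the log2 scale. Of 1087 other named probe sets above the floor on at least 2 arrays, 4 lay closer to XTH than COMT1 did and 5 lay closer to COMT1 than XTH did. Over all tested probe sets these numbers were 126 and 157, so that many transcripts followed this course. The 8 arrays fall into NT and CA, so that a fall of similar size is enough for a small distance.

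The named probe sets closest to XTH were LOC543492 (root mean square difference 0.15), LOC543008 (0.15) and LOC100037539 (0.17). Their log2 changes were -2.98, -3.01 and -2.95 in FR and -3.11, -3.57 and -3.52 in FS. Likeness was measured over all 8 arrays, the CA arrays included, so that the order of the lines in CA is part of what chose them. Closest to COMT1 were LOC542825, LOC543438 and LOC100037609 (0.13 each), with log2 changes of -2.65, -2.99 and -2.96 in FR and -2.73, -2.71 and -2.63 in FS. Limma called all 6 lower in both lines, where 13.6% (FR) and 13.8% (FS) of all probe sets were called lower. The 6 were chosen for profiles like those of XTH or COMT1, so that these calls largely follow from the choice. The gene table gives no other name for any of them.

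**Figure D4:**
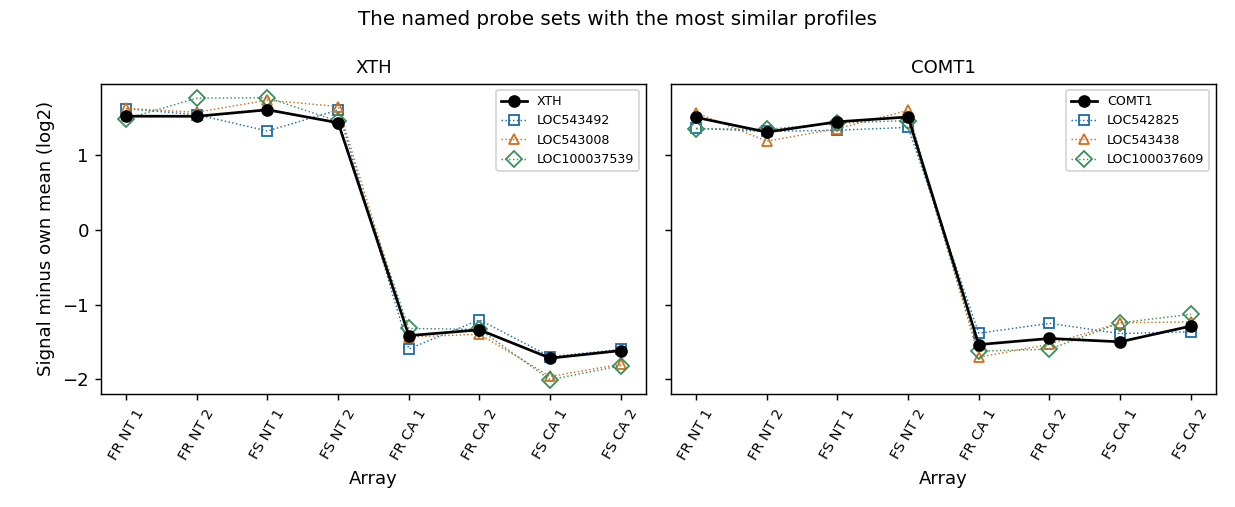
Log2 signal minus the probe set's own mean (vertical axis) on each of the 8 arrays for XTH and COMT1 (black) and for the 3 named probe sets most like each (coloured, dotted). All profiles drop by about the same amount between the NT and CA arrays. In the XTH panel the FS CA arrays lie below the FR CA arrays for XTH and for the 3 others, which were chosen over these same arrays.

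Few other genes of cell wall loosening or lignin synthesis were named on the array. The list for wall loosening and polysaccharides matched 6 probe sets of 4 genes, of which limma called 2 lower and 0 higher in each line (13.6% of all probe sets were lower in FR and 13.8% in FS). XTH was the only wall enzyme among them. The others matched by name alone and are known for other roles: AGP-S, a subunit of the starch enzyme ADP-glucose pyrophosphorylase, Glu-3, a glutenin storage protein of the grain, and GLU1A, a beta-glucosidase that releases benzoxazinoid defence compounds. The median change of the list was 0.00 in FR and -0.02 in FS, close to the 0.00 of all tested probe sets.

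GLU1A (LOC780595), the other probe set of that list to pass, fell 29.9-fold in FR and 57.2-fold in FS. In FR it went from 14.20 and 14.37 to 9.36 and 9.41, and in FS from 14.40 and 14.25 to 8.45 and 8.52. Both FR CA arrays stood above both FS CA arrays, as they did for 9.59% of all probe sets. This difference in CA was 0.90 on the log2 scale (SE 0.08). Limma called it (adjusted p = 0.0428), in a comparison where 0.373% of all probe sets were called. The call was lost under 11 of 16 alternatives, while the difference stayed at 0.86 to 0.93 over all 16. Among the 11 were leaving out any of the 4 NT arrays, FR CA replicate 2 or FS CA replicate 1. It was also lost with robust variances (limma adjusted p = 0.195) and kept with a filter on the floor (limma adjusted p = 0.026). The difference in response of GLU1A was not called (0.94, adjusted p = 0.151 from limma).

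The list for lignin and phenylpropanoids matched 7 probe sets of 3 genes, COMT1, Prx1 and PER1, of which limma called 4 lower and 1 higher in each line (of all probe sets 28.9% were called in either direction in FR and 30.1% in FS). Prx1 and PER1 matched by name alone, names like these are used for peroxidases and for peroxiredoxins, which are antioxidant enzymes, and a role of either in lignin is not given in the sources used here. Of the 4 lower probe sets 3 were those of Prx1. The median change of the list, -1.09 in FR and -0.86 in FS, is thus mostly that of genes with no stated role in lignin. Prx1 (LOC606328) was called lower on 3 of its 4 probe sets, with log2 changes of -1.62 to -1.09 in FR and -1.55 to -0.80 in FS. Its last probe set, which was not called, read only 3.56 to 3.91. PER1 (LOC543108), for which the gene table also gives the name peroxidase, rose on 1 probe set by 1.21 in FR and 1.56 in FS, from NT signals of 2.55 to 2.98 that lie around the array medians. On its other probe set, at 3.45 to 5.31, it was not called. The falls of Prx1 were all smaller than that of COMT1. The call of Prx1 on Ta.6572.1.S1_a_at was lost in FR with only the arrays compared (-1.09), without FR NT replicate 2 (-0.91) and without FR CA replicate 1 (-0.91). In FS it was lost without either FS NT array (-0.90 and -1.09) and without FS CA replicate 1 (-0.88). That of PER1 in FR was lost with only the arrays compared (1.21), without either FR NT array (1.20 and 1.22) and relative to the spike-ins (0.61).

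SAHH, S-adenosylhomocysteine hydrolase, clears the by-product of methyl transfer and was the one gene named for the supply and recycling of the methyl donor. On Ta.1258.1.S1_a_at it went from 16.39 and 16.30 to 15.19 and 15.36 in FR, and from 16.39 and 16.32 to 15.33 and 15.29 in FS. It fell 2.10-fold in FR and 2.06-fold in FS on this probe set, and 2.35-fold and 2.45-fold on Ta.1258.2.S1_x_at. Limma called both probe sets lower in both lines (adjusted p 0.000317 to 0.000687), as it did 13.6% of all probe sets in FR and 13.8% in FS. Falls at least as large were seen in 10.1% to 11.8% of all tested probe sets. The NT signals of Ta.1258.1.S1_a_at lay close to the array maxima of 16.70 to 16.89, where a fall can be understated, so that the fall of SAHH was not ranked against that of COMT1.

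**Figure D5:**
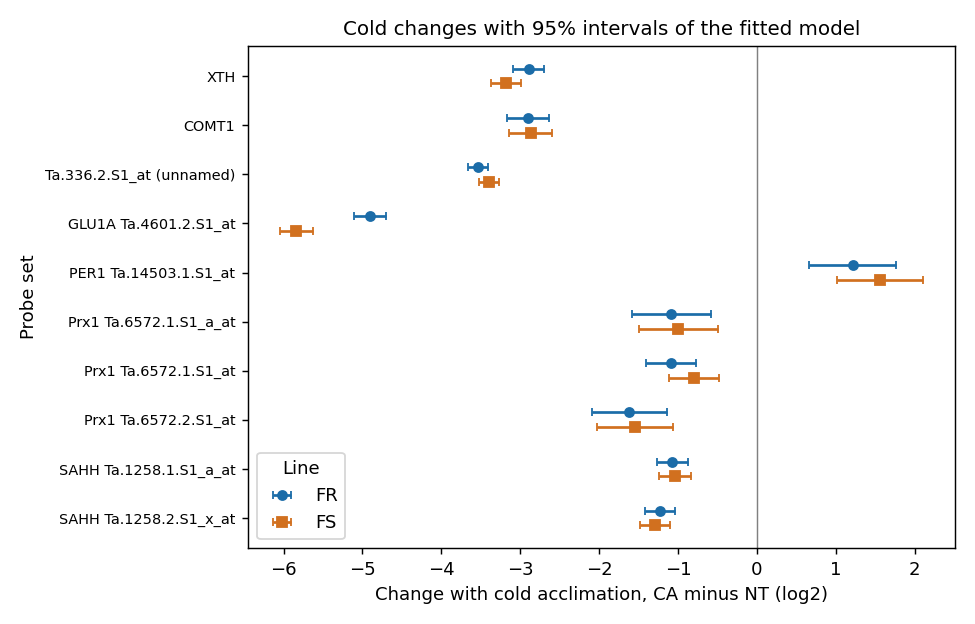
Log2 change from NT to CA (horizontal axis) in FR (circles) and FS (squares) with 95% intervals of the fitted model, for XTH, COMT1, the unnamed Ta.336.2.S1_at and the other probe sets of the wall, lignin and methyl donor lists that were called. XTH and COMT1 lie near -3, Prx1 and SAHH between -1.62 and -0.80, GLU1A at -4.90 and -5.84, and PER1 alone lies above 0.

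Most markers of dividing tissue fell with the treatment. Most green leaf probe sets, the larger part of them of rbcL and many with little signal, were not called. Histones H2A and H2B, which package newly made DNA, stood for dividing tissue. Of their 18 probe sets 17 were called lower and 1 higher in each line, against 13.6% (FR) and 13.8% (FS) of all probe sets called lower, with a median log2 change of -6.53 in FR and -6.67 in FS. The log2 of their summed unlogged signals was 18.45 to 18.66 in FR NT and 12.11 to 12.25 in FR CA. In FS it was 18.49 to 18.65 in NT and 11.95 to 11.98 in CA. The 17 lower histone probe sets thus fell further than XTH or COMT1. The 1 called higher, Ta.27192.1.S1_s_at of H2A-3, changed by 0.99 in FR and 1.31 in FS. Another probe set of that gene, Ta.27192.1.S1_at, changed by -4.90 and -5.17, so that its probe sets disagree. Of the 33 green leaf probe sets 4 were called lower and 0 higher in each line, a share near those 13.6% and 13.8%, and the median change of the list was 0.00 in both lines. The log2 of their summed unlogged signals was 17.88 to 17.95 in FR NT and 17.43 to 17.57 in FR CA. In FS it was 17.82 to 18.15 in NT and 17.48 to 17.50 in CA. This sum is carried by 2 rbcL probe sets that read 16.1 to 16.9, close to the array maxima of 16.70 to 16.89, where a change can be understated. The largest of the called falls were those of OEE2, a protein of the oxygen-evolving complex, with log2 changes of -3.86 and -4.99 in FR and -3.80 and -4.70 in FS on its pair of probe sets. The other called falls were those of OEE1 (-1.33 in FR and -1.02 in FS) and petC (-0.82 and -0.66). No rbcL probe set was called, and most of the 33 belong to this gene. OEE1, OEE2 and petC were called lower on all their probe sets but a petC one at the floor on every array. Of the 33 probe sets 23 lay under the median on all arrays. The share called and the median of the list thus mostly describe rbcL probe sets, many with little signal. The part of these tissue markers in the fall of XTH and COMT1 was not tested.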

How the data were processed

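Crown RNA was hybridized to 8 Affymetrix wheat arrays. The deposited log2 signals were background corrected and normalized by the authors with gcRMA (R/Bioconductor). RMA and GCRMA are also the tools in the submitters' notes, with versions not given in the sources used here. The values were used as deposited, with no filter.

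After 175 control probe sets were set aside, limma 3.58.1 (R 4.3.3) was run on 61115 probe sets with a mean for each of the 4 groups. Variances were moderated with a trend on intensity (4 degrees of freedom from the residuals and 0.623 from the prior). The Benjamini-Hochberg adjustment ran over all 61115, with calls made where the adjusted p was under 0.05. The 95% intervals and the p-values come from this fit, except those of the alternatives, which come from refits. In simulated data with 200 changed probe sets, the fit recovered 6% of log2 changes of 1 for FR against FS in CA. For the difference in response it recovered 0%. At a log2 change of 4 the shares were 84% and 56%. A difference between the lines that was not called thus does not show that the lines are equal. Plots were made in matplotlib 3.10.9 (Python 3.11.15).

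Names came from the array annotation, in which 1273 probe sets carry 1 symbol, and from other names in the RefSeq gene table (assembly IWGSC CS RefSeq v2.1), which holds 1272 of these by gene identifier. The named genes are XTH and COMT1, the 3 probe sets most like each of them, and genes of the wall, lignin and methyl donor lists that passed the test in a comparison. The other matches of the wall list and the leaf and histone markers are outside this rule and were named after their values were seen. The members, lists and alternatives were chosen with earlier results of these data known. The alternatives were a replicate block, no trend, robust variances, a filter on the floor, scalings to array medians or spike-ins, a floor at the array median, only the arrays compared, and leaving out each array.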

Additional observations from a re-analysis of the deposited data

How the results depend on the processing

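The falls of XTH and COMT1 with cold acclimation were called in both lines under all 16 alternatives, with log2 changes of XTH of -3.50 to -2.83 (FR) and -3.79 to -3.10 (FS), and of COMT1 of -3.50 to -2.80 (FR) and -3.47 to -2.77 (FS). The difference of XTH between FR CA and FS CA was 0.24 to 0.34 under the 16 and was called under none. With the filter on the floor its adjusted p from limma was 0.252. Leaving out an array could not change its sign, since both FR CA arrays lay above both FS CA arrays. The block, no trend, robust variances and the filter leave its size as it is.

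Differences close to 0 changed sign. For XTH in NT (0.00) the value was -0.0092 with arrays centred on their medians, -0.041 relative to the spike-ins and -0.086 to 0.087 when each array was left out in turn. For COMT1 leaving out each array gave -0.17 to 0.027 in NT, -0.21 to 0.0038 in CA and -0.13 to 0.076 for the difference in response. For Ta.336.2.S1_at in NT it gave -0.078 to 0.046. None of these was called.

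The counts over all probe sets moved more. Centred on array medians 41893 were called in FR (78.2% higher, against 52.9%) and 43048 in FS (78.7%, against 54.3%). Relative to the spike-ins they were 46293 (12.9%) and 46806 (14.0%), and floored at the array median 48380 (22.3%) and 48997 (23.1%). By construction, values at the floor take the shift of their array in these settings. For FR against FS in NT the count went from 13 to 4 with robust variances, 7 with either scaling (28.6% higher, against 61.5%), 1 with the floor at the median, 28 with only the arrays compared and 14 to 1212 without 1 array. In CA it went from 228 to 35 with robust variances, 552 relative to the spike-ins, 53 with only the arrays compared and 32 to 2170 without 1 array. For the difference in response it went from 66 to 15 with robust variances, 259 relative to the spike-ins (87.3% higher, against 59.1%) and 888 to 1862 without 1 array. The cause of these moves between the lines was not tested. Where 1 array of a group is left, its spread is taken to be that of the other groups.

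With the replicate number as a block, 35 probe sets were called between the lines in CA and 22 for the difference in response, and no call of XTH or COMT1 changed. The GLU1A difference between the lines in CA was not called with the block (0.90, limma adjusted p = 0.159). Deviations of same-numbered arrays correlated at 0.0809 to 0.362 over the 6 pairs of groups, and at 0.106 to 0.394 without the probe sets at the floor. With 2 numbers in each group and no label that gives them a shared origin, the numbers were not taken to pair the arrays, and the second range is a hint from the data that they may.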
